A study of Mus musculus with 24 samples.

Results

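The immediate early genes described here are *Fos*, *Fosb*, *Jun*, *Junb*, *Egr1*, *Egr2*, *Arc*, *Npas4*, *Nr4a1* and *Ier2*, 10 genes taken by the RefSeq accession of their array probes, out of 21368 genes that could be named on the array. Each gene had 1 probe, and *Fos* was printed as 10 spots, which were averaged. They were measured in 24 Agilent 1-color arrays of male mice that were either wild-type (WT) or homozygous for a *Rap1* point mutation introduced by CRISPR/Cas9 (Rap1 KI/KI), on a background crossed back to C57BL6 (C57BL/6N in the study's methods), with no other treatment in the labels. RAP1, encoded by *Terf2ip*, is the shelterin protein that the mutation keeps away from telomeres. The liver, brain, heart and muscle of the same 6 mice were used, 3 of each genotype, and mice WT1 and KI1 were 5 months old while WT2, WT3, KI2 and KI3 were 2 months old. Each level below is a processed signal on the log2 scale, set so that 0 is the signal that 75% of the probes on the same array fall below. Levels were compared for 1 gene across arrays and never between genes, since probes differ in brightness for the same amount of RNA.

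Immediate early genes, as a class, are transcribed within minutes of a stimulus from transcription factors that are already bound and waiting, without the need for new protein. Most encode transcription factors that carry the signal forward: the Fos and Jun families pair to form AP-1, the Egr proteins are zinc finger factors that bind GC-rich sites, and Nr4a1 is an orphan nuclear receptor. In the brain they follow neuronal firing and are widely used as markers of it, and in other tissues they respond to growth factors, hormones, contraction and handling. Their mRNAs are short-lived, so a level in a tissue sample reflects the time just before collection.

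The arrays lay on 3 slides that followed the tissues: slide 1 held the 6 liver arrays and 2 of brain, slide 2 the other 4 of brain and 4 of heart, and slide 3 the last 2 of heart and the 6 of muscle. RNA was purified with a different kit for heart and muscle than for brain and liver, so kit and tissue cannot be told apart for those pairs. Between 56.5% and 72.7% of the probes were well above background on an array. Each tissue expressed its defining markers. The mean level of 6 hepatocyte genes was 8.16 to 8.97 in liver, that of 9 neuronal genes was 4.68 to 5.47 in brain, that of 6 cardiomyocyte genes was 8.53 to 9.36 in heart and that of 6 skeletal muscle genes was 7.22 to 7.51 in muscle. The muscle array of KI3 stood apart, with neuronal genes at 2.28 against -3.23 to -1.30 on the other 5 muscle arrays. The muscle array of KI1 had neutrophil genes at 1.82, against -4.06 to -0.97 on the other muscle arrays. The brain array of WT1 had hepatocyte genes at -0.23, against -3.16 to -2.26 on the other brain arrays. *Terf2ip* mRNA did not differ between genotypes in any tissue (log2 differences of 0.12 in liver, -0.02 in brain, -0.41 in heart and -0.28 in muscle, smallest adjusted p = 0.66 in limma), and because the allele carries a point mutation its mRNA level does not check the labels. Whether a tissue with a lower level held fewer expressing cells or less RNA per cell cannot be told apart in these bulk samples.

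Promoters in RefSeq (GRCm38.p6) were searched for 7 of the 10 genes. *Egr1*, *Arc* and *Ier2* were not part of this search, so the motif counts below do not cover them. Among the 7, *Fos*, *Fosb* and *Egr2*, and *Nr4a1* with *Npas4*, moved together most closely across arrays, and *Jun* stood most apart. The 250 bases before the start site are shown for these 6 genes. Each is written 5′ to 3′ on the strand of the gene. Capitals mark the cyclic AMP response element (CRE) half-site TGACG on either strand, the site read by CREB-type factors, together with the serum response factor motif called the CArG box and the TATA motif TATAAA. They lie at chr12:85473640-85473889 (plus strand) for *Fos*, chr7:19310046-19310295 (minus) for *Fosb*, chr10:67537619-67537868 (plus, 1 of 5 listed starts) for *Egr2*, chr15:101266596-101266845 (plus) for *Nr4a1*, chr19:4989972-4990221 (minus) for *Npas4* and chr4:95052223-95052472 (minus) for *Jun*.
Fos: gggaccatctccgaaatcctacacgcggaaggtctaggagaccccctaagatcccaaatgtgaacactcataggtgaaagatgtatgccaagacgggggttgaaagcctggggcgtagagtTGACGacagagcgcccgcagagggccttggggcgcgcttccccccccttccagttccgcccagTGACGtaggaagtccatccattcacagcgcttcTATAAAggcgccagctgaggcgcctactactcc
Fosb: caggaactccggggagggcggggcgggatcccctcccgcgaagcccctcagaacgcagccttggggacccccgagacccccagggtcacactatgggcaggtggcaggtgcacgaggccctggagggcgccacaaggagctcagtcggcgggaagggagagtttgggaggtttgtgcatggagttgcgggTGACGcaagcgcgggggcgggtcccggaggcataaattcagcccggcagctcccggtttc
Egr2: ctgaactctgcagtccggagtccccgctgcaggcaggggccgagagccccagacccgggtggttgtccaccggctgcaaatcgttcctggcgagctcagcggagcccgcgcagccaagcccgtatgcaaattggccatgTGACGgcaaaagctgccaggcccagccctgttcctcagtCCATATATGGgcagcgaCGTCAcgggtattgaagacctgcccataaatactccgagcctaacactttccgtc
Nr4a1: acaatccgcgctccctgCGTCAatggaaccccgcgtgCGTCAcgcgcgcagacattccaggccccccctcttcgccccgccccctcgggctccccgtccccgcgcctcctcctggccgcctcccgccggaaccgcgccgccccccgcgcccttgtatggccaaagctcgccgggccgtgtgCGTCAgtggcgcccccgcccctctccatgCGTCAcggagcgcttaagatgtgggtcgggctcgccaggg
Npas4: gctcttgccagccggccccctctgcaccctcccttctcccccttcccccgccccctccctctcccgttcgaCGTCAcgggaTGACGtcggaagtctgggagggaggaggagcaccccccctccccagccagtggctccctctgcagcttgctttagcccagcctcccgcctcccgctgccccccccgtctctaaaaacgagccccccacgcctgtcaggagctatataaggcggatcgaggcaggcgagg
Jun: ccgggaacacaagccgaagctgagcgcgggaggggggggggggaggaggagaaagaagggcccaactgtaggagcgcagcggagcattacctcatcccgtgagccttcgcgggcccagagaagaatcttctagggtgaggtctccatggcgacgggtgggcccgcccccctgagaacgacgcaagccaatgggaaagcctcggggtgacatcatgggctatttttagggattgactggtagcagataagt

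The CRE half-site, searched only as the exact letters TGACG, was found in 6 of the 7 genes. It was missing in that form from this window in *Jun*, which holds TGACATCA, 1 letter from the palindrome TGACGTCA. Over all 27025 genes with a promoter entry, 19.8% held the exact half-site. *Fos* had it at positions -129 and -66, counted back from the start site, with the TATA motif at -33. *Nr4a1* had 4, at -233, -213, -69 and -40, and *Npas4* had a pair at -179 and -169 that point away from each other. *Egr2* carried the half-site on both sides of a CArG box at -72. The CArG box was present in 1 of the 7 genes and in 1.62% of all genes, and the full palindrome TGACGTCA and the AP-1 site (TGACTCA, which is TGAGTCA on the other strand) were in none of the 7, against 1.77% and 5.16% of all genes. The half-site overlaps the palindrome by its letters, and all motifs were searched on both strands, and these matches describe the sequence only.

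The tissues differed widely in these genes. Brain was above liver for 8 of them, *Arc* by 381-fold, and muscle held the highest levels of *Jun* and *Nr4a1*. Across the 6 pairs of tissues, 45 of 60 differences passed an adjusted p of 0.05 in limma, and all 45 kept their sign after quantile normalization and after the median shift of all probes was subtracted. That median shift was -0.35 to -0.27 for brain against the other tissues, where quantile normalization gave -0.15 to -0.14 and normexp background correction up to -0.64 (brain against muscle). For muscle against liver it was 0.06, and 0.43 after normexp, under which no called difference changed sign either. Normexp made several differences of dim genes smaller. Against liver, *Npas4* gave 1.1 in place of 2.57 in heart and 1.11 in place of 2.29 in muscle. *Egr2* gave 1.7 in place of 2.92 in heart and 2.46 in place of 3.95 in muscle, and *Arc* 3.61 in place of 4.89 in muscle. *Junb* gave 0.67 in place of 1.27 for brain against heart and 0.59 in place of 1.87 for brain against muscle. Several others are given with each gene below. Tissue differences are common on this array, so each count is read against the share of all 42322 tested probes that passed in the same direction.

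**Figure D1:**
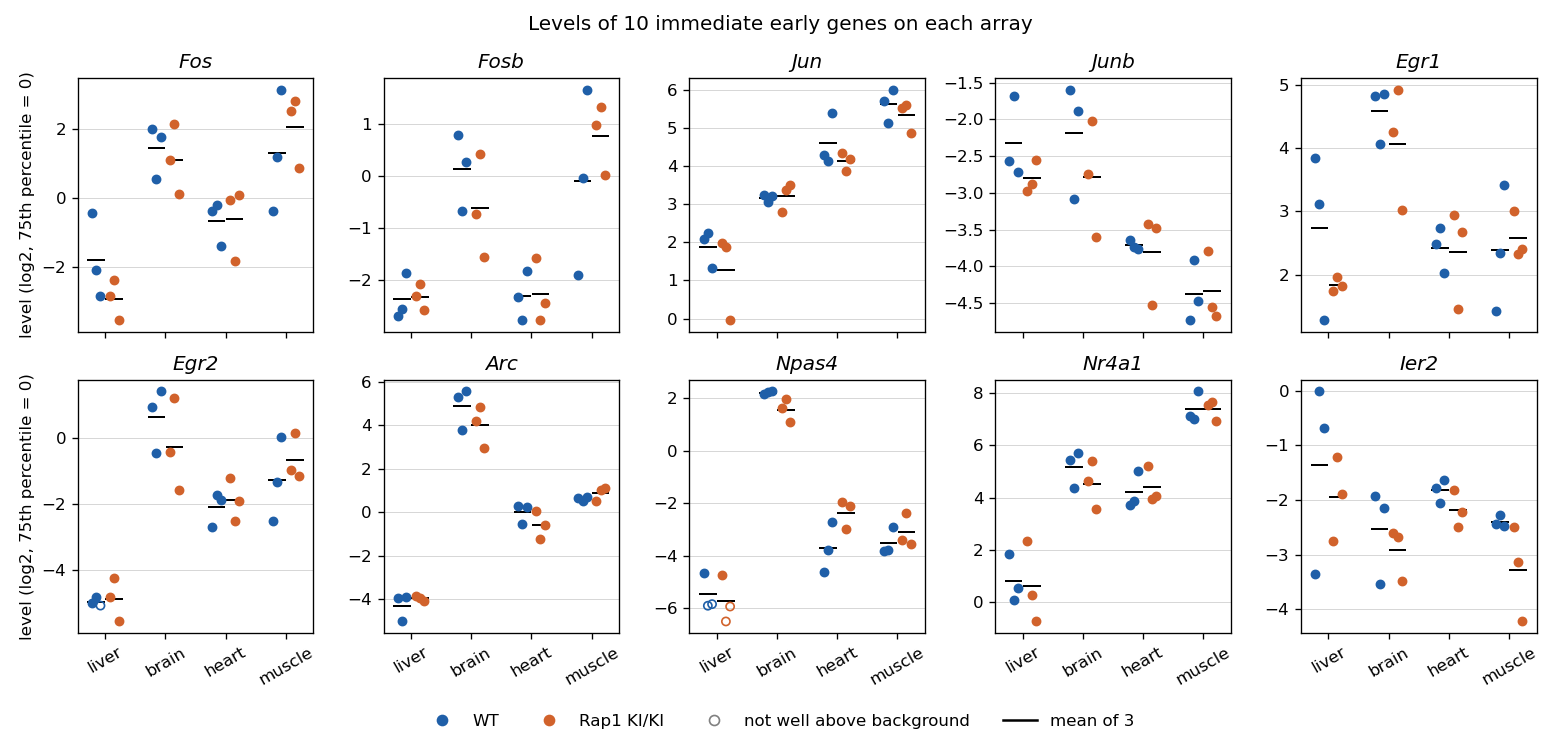
Level of each gene (log2 processed signal, with the 75th percentile of the array at 0; each panel has its own axis) on the 24 arrays, by tissue and genotype, with the mean of 3 mice as a black line and open circles for arrays where the probe was not well above background. *Arc* and *Npas4* stand highest in brain and *Jun* and *Nr4a1* in muscle, while WT and Rap1 KI/KI mice lie in the same range in nearly every panel.

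*Fos*, the founding AP-1 subunit, ranged from -3.52 to -0.43 in liver (median -2.59), from -1.80 to 0.09 in heart (median -0.29), from 0.11 to 2.14 in brain (median 1.44) and from -0.36 to 3.13 in muscle (median 1.84). Brain and muscle lay in the same range and did not differ by the test (-0.41, SE 0.57, adjusted p = 0.54). Both were above heart, brain by 1.90 (SE 0.57, 3.74-fold, adjusted p = 0.0066) and muscle by 2.31 (heart minus muscle -2.31, SE 0.57, adjusted p = 0.0028, and -1.68 without WT3). The 6 brain arrays were all above the 6 heart arrays, but only narrowly, and without KI2 the difference was 1.35 and no longer passed. Heart in turn exceeded liver by 1.72 (SE 0.57, adjusted p = 0.013), a call lost without WT2, KI1 or KI3. *Fosb*, a paralog of *Fos*, had nearly the same order. It was -2.70 to -1.87 in liver and -2.77 to -1.57 in heart, which did not differ (0.06, SE 0.47, adjusted p = 0.91), and it was 4.30-fold higher in brain than in liver and 6.45-fold higher in muscle than in liver. Its muscle values ran from -1.90 in WT1 to 1.66 in WT3, so the muscle group touched the liver range through WT1 alone.

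*Jun*, the main partner of Fos proteins, followed a different order. It was -0.04 to 2.25 in liver (median 1.93), 2.81 to 3.50 in brain (median 3.22), 3.87 to 5.40 in heart (median 4.26) and 4.88 to 6.01 in muscle (median 5.57). Every step up this order passed the test: brain over liver by 1.62 (SE 0.31, adjusted p = 0.00011), heart over brain by 2.26-fold (brain minus heart -1.18, SE 0.31, adjusted p = 0.0027) and muscle over heart by 2.15-fold (heart minus muscle -1.10, SE 0.31, adjusted p = 0.0077). The step from heart to muscle overlapped through the heart of WT3 at 5.40 and was lost without WT1. *Junb*, which forms AP-1 dimers of weaker activity than Jun, ran nearly the other way. Its range was -2.98 to -1.68 in liver, -3.60 to -1.60 in brain, -4.52 to -3.43 in heart and -4.73 to -3.79 in muscle, with brain and liver not separated by the test (0.07, SE 0.30, adjusted p = 0.83, and -0.27 after quantile normalization) and heart and muscle not separated by the test (0.59, SE 0.30, adjusted p = 0.12). All 6 muscle arrays lay below all 6 liver arrays (-1.79, SE 0.30, adjusted p = 3e-05), and the difference was -0.60 after normexp.

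*Egr1*, a zinc finger factor induced by nearly every mitogen, was 3.02 to 4.92 in brain, against 1.28 to 3.84 in liver, 1.46 to 2.94 in heart and 1.42 to 3.42 in muscle. Brain exceeded the other 3 tissues by 2.03 over liver, 1.94 over heart and 1.84 over muscle (SE 0.42 each, largest adjusted p = 0.0007), while the differences among liver, heart and muscle were at most 0.19. *Egr2*, its relative known for roles in myelination and hindbrain patterning, separated the tissues further. It was -5.55 to -4.24 in liver, where it was well above background on 5 of 6 arrays, -2.69 to -1.21 in heart, -2.52 to 0.15 in muscle and -1.56 to 1.42 in brain. Brain exceeded liver by 5.10 (SE 0.48, 34.4-fold, adjusted p = 7.2e-09) and all 6 arrays of heart and of muscle also lay above every liver array. After normexp the difference between brain and liver was 3.54. The difference between brain and muscle was smaller (1.16, SE 0.48, adjusted p = 0.037) and was lost without WT1, KI1 or KI2, and also without the muscle array of KI3, where it was 1.04.

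*Arc*, whose product acts at synapses to remove glutamate receptors, and *Npas4*, a factor switched on by calcium entry in neurons, showed the steepest tissue pattern. *Arc* was 5.33, 3.79 and 5.57 in the brains of WT1, WT2 and WT3 and 4.22, 4.86 and 2.96 in those of KI1, KI2 and KI3, against -5.01 to -3.86 in liver, -1.21 to 0.28 in heart and 0.55 to 1.13 in muscle. The 4 tissue groups did not overlap, and brain was 381-fold above liver (8.57, SE 0.34, adjusted p = 1.4e-14), 26.7-fold above heart and 12.9-fold above muscle. After normexp the difference between brain and liver was 7.32, and that between heart and liver was 2.69 in place of 3.83. *Arc* in muscle was also 2.08-fold above heart (heart minus muscle -1.06, SE 0.34, adjusted p = 0.016), a difference lost without KI2. The KI3 muscle array, which carried neuronal genes at 2.28, had the highest muscle value of *Arc*, 1.13, and the other 5 muscle arrays were at 0.55 to 1.03 with neuronal genes at -3.23 to -1.30. *Npas4* was 1.10 to 2.27 in brain and -3.83 to -2.37 in muscle, with -3.56 in KI3. The part of the neuronal genes of that 1 array in either level was not tested. It was well above background on 2 of 6 liver arrays (WT1 at -4.68 and KI1 at -4.74) and was not well above background on the other 4. With each liver array set at its own level or at the lowest level well above background on it, whichever was higher, the liver mean was -5.39 (-5.61 as measured) against 1.90 in brain. In this scaling brain was then 156-fold higher. That value is not a strict lower bound, since probes not well above background can lie above the lowest flagged level. In the liver of KI3 *Npas4* was not well above background at -5.94, where the lowest level well above background was -5.97. After normexp the difference between the measured means was 5.18 in place of 7.5, so the 156-fold holds for the processed signal only. Heart and muscle did not differ for *Npas4* (0.28, SE 0.36, adjusted p = 0.56).

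*Nr4a1*, a nuclear receptor induced by contraction and by adrenergic signals in muscle, was 7.11, 7.0 and 8.07 in the muscle of WT1, WT2 and WT3 and 7.56, 7.68 and 6.94 in that of KI1, KI2 and KI3. These 6 values lay above every other array. Muscle exceeded liver by 6.67 (SE 0.47, 101-fold, adjusted p = 1.8e-10), heart by 8.47-fold and brain by 5.78-fold (brain minus muscle -2.53, and -1.51 after quantile normalization). Brain (3.58 to 5.72) and heart (3.72 to 5.20) did not differ (0.55, SE 0.47, adjusted p = 0.31), and both were above liver (-0.73 to 2.34), brain by 17.6-fold and heart by 12-fold. *Ier2*, a small nuclear protein gene with an early induction profile, had the flattest order of the 10. It was -3.35 to -0.01 in liver, -2.50 to -1.64 in heart, -3.54 to -1.93 in brain and -4.22 to -2.28 in muscle. Liver was above brain and above muscle by the test (brain minus liver -1.07, SE 0.45, adjusted p = 0.037; muscle minus liver -1.19, SE 0.45, adjusted p = 0.025), but the sign held in 4 of 6 mice and both calls were lost when any of WT2, WT3, KI2 or KI3 was left out. Without WT1 the difference between brain and liver was -1.73.

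Counted over the 10 genes, brain against liver gave 8 higher and 1 lower (33.4% and 45.6% of all probes), and muscle against liver gave 7 higher and 2 lower (36.2% and 34.9%). Brain against heart gave 7 higher and 1 lower, with 27.8% and 39.9% of all probes. Brain against muscle gave 5 higher and 2 lower, with 28.7% and 41.4%. Heart against liver gave 6 higher and 1 lower, with 32.3% and 34.4%, and heart against muscle gave 5 lower and 0 higher (limma, with *Ier2* and *Junb* higher in 6 of 6 mice but not called), with 22.4% and 21% of all probes. At an unadjusted p under 0.05 no gene was higher in heart than in muscle either. The median difference of the 10 genes was 2.86 for brain against liver, 3.30 for muscle against liver, 2.14 for heart against liver, 1.92 for brain against heart, 0.64 for brain against muscle and -1.04 for heart against muscle. With slide as a block, an alternative chosen after seeing the data, all 45 differences kept their sign, but the called genes fell from 9 to 5 for muscle against liver and from 5 to 3 for heart against muscle. On slide 1 the brains of WT1 and KI1 exceeded the 6 livers by 8.89 for *Arc*, 5.18 for *Egr2* and 4.32 for *Nr4a1*, where all slides together gave 8.57, 5.10 and 4.13. The values were smaller on that slide for *Jun* (1.44 against 1.62) and *Ier2* (-0.61 against -1.07). On slide 3 the hearts of WT3 and KI3 differed from the 6 muscles by -2.84 for *Nr4a1* and by -0.68 for *Jun*, where all slides together gave -1.10 for *Jun*. WT1 and KI1 were 5 months old and WT3 and KI3 were 2 months old, while the livers and muscles came from all 6 mice. These comparisons within a slide therefore matched neither mouse nor age.

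Against this, the genotypes could not be separated. In limma, 0 of 9 genes tested in liver and 0 of 10 in each of brain, heart and muscle passed an adjusted p of 0.05, where 0% of all probes passed in every tissue (35213, 37800, 34823 and 32343 tested). At an unadjusted p under 0.05 the counts were 0 in liver, 1 in brain, 1 in heart and 0 in muscle, against 2.13%, 2.62%, 7.51% and 2.47% of all probes. *Npas4* was not tested in liver because it was well above background on too few arrays. The Rap1 KI/KI mean was below the WT mean for 6 of 9 genes in liver, 9 of 10 in brain, 5 of 10 in heart and 2 of 10 in muscle, where *Nr4a1* was equal (7.39 in both). The median difference was -0.48 in liver, -0.62 in brain, -0.01 in heart and 0.22 in muscle, with -0.01, -0.05, -0.02 and -0.07 over all probes. The 10 genes of a tissue share the same 6 mice and are not independent, and these medians changed with single mice: without KI3 the liver median was 0.05 and that of brain was -0.18, without WT1 that of muscle was -0.11, and without KI2 that of heart was 0.34. Leaving out each mouse in turn, the Rap1 KI/KI mean was the lower one for 8 to 10 of 10 genes in brain, 4 to 8 of 9 in liver, 3 to 9 of 10 in heart and 2 to 8 of 10 in muscle. These ranges count unrounded values, by which all 6 mice together gave 3 of 10 in muscle, with *Nr4a1* counted as lower.

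**Figure D2:**
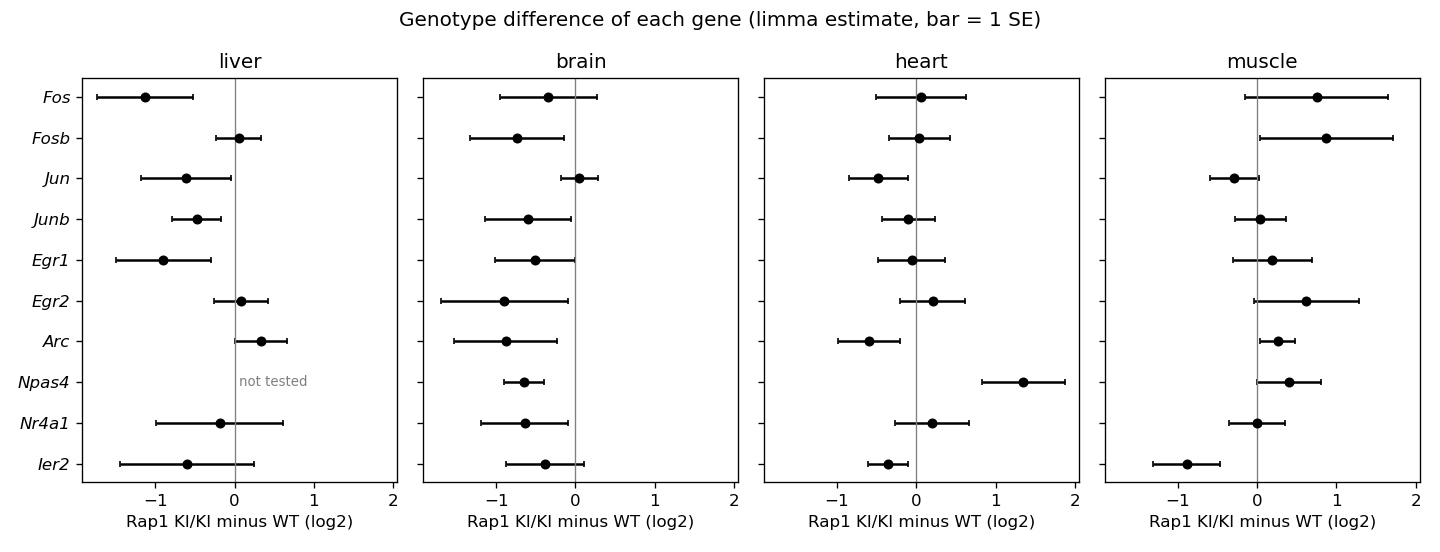
Rap1 KI/KI minus WT for each gene in each tissue (log2, limma estimate, 3 mice a genotype, bars of 1 SE). In brain 9 of 10 estimates are below 0, and no estimate in any tissue passed an adjusted p of 0.05.

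*Fos* in liver had a difference of at least 1 on the log2 scale. It was -0.43, -2.08 and -2.82 in WT1, WT2 and WT3 and -2.83, -2.36 and -3.52 in KI1, KI2 and KI3. The WT group overlapped the Rap1 KI/KI group through WT3, and the lower mean of the Rap1 KI/KI livers (-1.13, SE 0.61, adjusted p = 1) rested largely on WT1, since it was -0.45 without that mouse. Among the 4 mice of 2 months it was -0.49, and between the 2 mice of 5 months it was -2.40.

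*Npas4* in brain was 2.15, 2.24 and 2.27 in the WT mice and 1.65, 1.96 and 1.10 in the Rap1 KI/KI mice. All 3 Rap1 KI/KI values lay below all 3 WT values, as for 7.74% of all probes tested in brain, which differed without overlap in either direction. It was the only one of the 10 genes to do so in brain. The difference was -0.65 (SE 0.25, 1.57-fold, adjusted p = 1 in limma, with an unadjusted p under 0.05), and it was -0.73 on the slide that held WT2, WT3, KI2 and KI3 and -0.51 on the slide that held WT1 and KI1. The mean of the 9 neuronal genes on the same arrays was 5.47, 4.68 and 5.16 in WT1, WT2 and WT3 and 5.01, 5.13 and 4.72 in KI1, KI2 and KI3. The 6 glial genes also separated the genotypes, with means of 3.31 to 3.44 in the WT brains and 3.59 to 4.06 in the Rap1 KI/KI brains, and so did the 6 adipocyte genes, at -6.67 to -6.56 and -6.30 to -5.73, of which 1 to 3 were well above background on an array. The part of the neuronal, glial and adipocyte genes in the result was not tested.

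*Npas4* in heart went the other way. It was -4.62, -3.79 and -2.71 in the WT mice and -1.96, -2.99 and -2.12 in the Rap1 KI/KI mice, and WT3 lay above KI2, so the groups overlapped. The difference was 1.35 (SE 0.52, 2.55-fold, adjusted p = 0.65 in limma, with an unadjusted p under 0.05), with 2.66 for the pair of 5 months and 0.70 for the 4 mice of 2 months. It was 0.69 after normexp. The hearts also differed in their marker genes, and not all lists went in the same direction as *Npas4*. The mean level of the 6 adipocyte genes was -4.07, -0.44 and -0.59 in WT1, WT2 and WT3 and 2.38, -0.47 and 3.51 in KI1, KI2 and KI3. The 4 smooth muscle genes were at 2.84, 3.80 and 3.75 in the WT mice and 5.69, 3.64 and 5.12 in the Rap1 KI/KI mice. The 9 neuronal genes were at -2.35, -1.73 and -1.77 in the WT mice and -1.01, -2.15 and -0.88 in the Rap1 KI/KI mice. KI1 and KI3, the hearts with the highest *Npas4*, were also the highest for all 3 lists, and the part of these cells in the result was not tested.

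*Ier2* in muscle was -2.43, -2.28 and -2.48 in the WT mice and -2.50, -3.14 and -4.22 in the Rap1 KI/KI mice. All 3 Rap1 KI/KI values lay below all 3 WT values, as in 6.45% of all probes tested in muscle, yet KI1 missed the lowest WT value only narrowly. The difference was -0.89 (SE 0.42, adjusted p = 0.94 in limma), and without KI3, whose muscle array carried neuronal genes, it was -0.43. In liver and heart no gene separated the genotypes, where 5.85% and 14.7% of all probes did. The genotype difference did not differ between tissues by the interaction test in limma, in which 0 of 10 genes passed at an adjusted p of 0.05 or at an unadjusted p under 0.05 (0% and 2.92% of 42322 probes). *Npas4* came closest, with opposite signs in brain and heart (unadjusted p = 0.058, adjusted p = 1 in limma).

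The spread between mice of the same genotype was wide for these genes. The median within-genotype SD was 0.88 in liver, 0.80 in brain, 0.57 in heart and 0.60 in muscle, while the median over all probes was 0.32, 0.33, 0.35 and 0.32. In liver 5 of 9 genes had an SD above the 90th percentile of all probes tested there, led by *Ier2* (SD 1.36, percentile 98.2), *Nr4a1* (SD 1.28, percentile 97.8) and *Fos* (SD 0.96, percentile 95). In muscle 4 of 10 did so, *Fos* (SD 1.44), *Fosb* (SD 1.35), *Egr2* (SD 1.04) and *Egr1* (SD 0.76). In brain 1 of 10 did so, *Egr2* (SD 1.2), with the rest except *Jun* and *Npas4* between the percentiles 82.9 and 90. The same held for 1 of 10 in heart, *Fos* (SD 0.87). By definition 10% of all probes lie above that percentile, so the counts in brain and heart equal that share. *Fosb* spanned 11.8-fold and *Fos* 11.2-fold across the 6 muscles, and *Ier2* spanned 10.1-fold across the 6 livers. The steadiest were *Arc* in muscle (SD 0.23, 1.5-fold across 6 mice), *Jun* in brain (SD 0.27, 1.61-fold) and *Ier2* in heart (SD 0.28, 1.81-fold).

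In brain the spread was shared by nearly all of the genes. WT1, WT3 and KI2 were above the mean of the tissue for 10 of 10 genes, and WT2, KI1 and KI3 for 1 of 10 each. KI3 had the lowest value for 8 of the 10. The mean deviation of the 10 genes was 0.65 in WT1, -0.44 in WT2 and 0.63 in WT3, and it was -0.26 in KI1, 0.48 in KI2 and -1.07 in KI3, so each genotype had mice on both sides. *Egr2* was 0.95, -0.44 and 1.42 in the WT mice and -0.42, 1.21 and -1.56 in the Rap1 KI/KI mice, *Nr4a1* was 5.45, 4.38 and 5.72 against 4.65, 5.40 and 3.58, and *Fos* was 2.00, 0.56 and 1.78 against 1.10, 2.14 and 0.11. These 3 genes had the same 3 mice high and the same 3 low. *Npas4* was high in WT2 (2.24), above WT1 and KI2, and *Ier2* in KI1 (-2.60) lay just above KI2 (-2.67). *Jun* stood outside this pattern, at 3.24, 3.07 and 3.21 in the WT mice and 2.81, 3.37 and 3.50 in the Rap1 KI/KI mice.

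The 9 neuronal genes in brain were highest in the same 3 mice, at 5.47 in WT1, 5.16 in WT3 and 5.13 in KI2, against 5.01 in KI1, 4.72 in KI3 and 4.68 in WT2. They spanned 0.79 from lowest to highest, while *Egr2* spanned 2.98 and *Arc* 2.61. KI3, the brain with the lowest early gene levels, also had the highest macrophage genes (mean of 6 genes 3.57, against 1.75 to 2.25 in the other 5 brains) and the highest glial genes (4.06, against 3.31 to 3.73). The part of these markers in the shared spread was not tested.

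**Figure D3:**
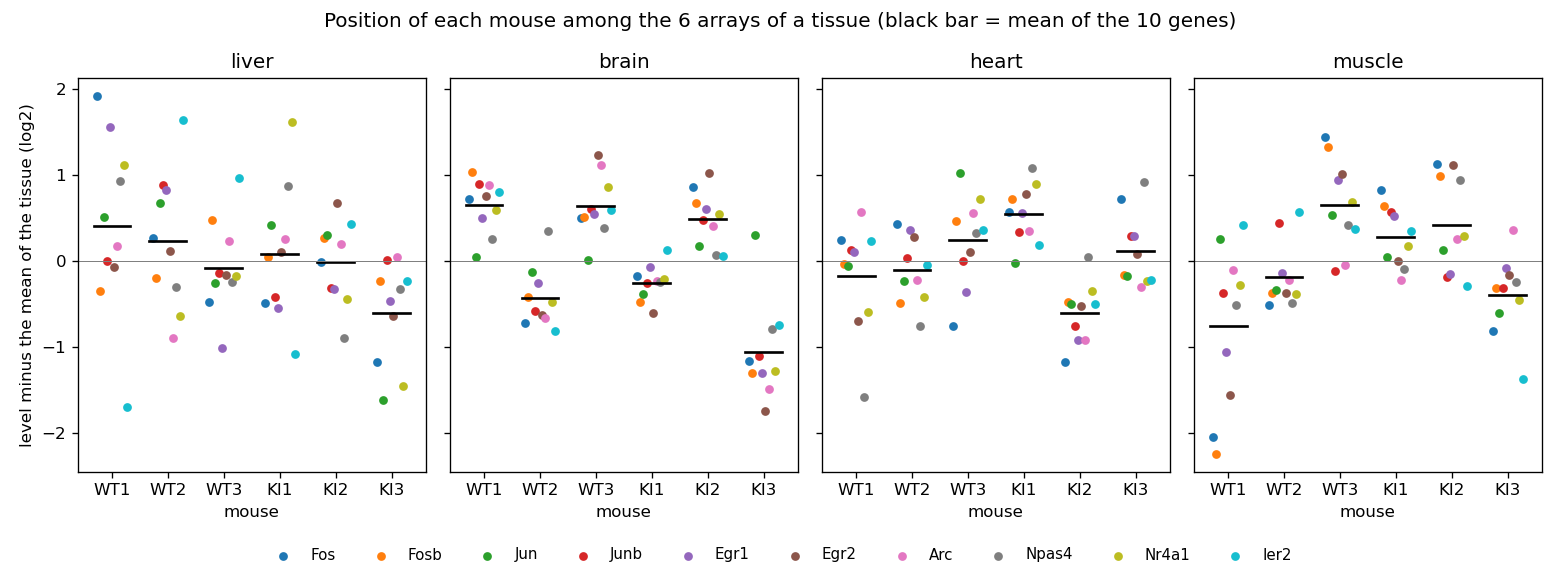
Level of each gene minus its mean over the 6 arrays of the tissue (log2), for each mouse and tissue, with the mean over the 10 genes as a black bar. In brain the genes of a mouse lie close together, with WT1, WT3 and KI2 above 0 and KI3 lowest at a mean of -1.07, while in liver they scatter on both sides of 0.

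Some mice changed their place from tissue to tissue. The mean deviation of KI3 was -1.07 in brain, -0.61 in liver and -0.40 in muscle but 0.11 in heart, and that of WT3 was 0.63 in brain, 0.65 in muscle and 0.24 in heart but -0.08 in liver. In heart KI1 was highest for 6 of 10 genes (mean deviation 0.54) and KI2 was lowest for 6 (-0.61). In muscle WT3 was highest for 5 and WT1 lowest for 6 (-0.76), although WT1 had been among the high brains. In liver KI3 was lowest for 4 and WT1 and WT2 were each highest for 3, with no mouse on 1 side for all genes.

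Correlations between pairs of genes, over deviations from the mean of the tissue and genotype, describe the same pattern. The points share arrays and mice and carry no test. Over 24 arrays the median r of the 45 pairs was 0.45, and 18 pairs exceeded 0.5. Within a tissue, over 6 arrays, the median was 0.91 in brain, 0.56 in heart, 0.41 in muscle and 0.16 in liver, where 21 of 45 pairs were below 0. Leaving out each mouse in turn, the median stayed between 0.85 and 0.93 in brain and moved between 0.19 and 0.76 in heart, where KI2 gave the lowest value. All 5 pairs below 0 in brain involved *Jun*. The closest pairs over 24 arrays were *Fos* with *Egr1* (r = 0.86), *Fosb* with *Egr2* (0.84), *Fos* with *Egr2* (0.77) and *Npas4* with *Nr4a1* (0.77). Of the promoters shown above, those of *Fos*, *Fosb*, *Egr2*, *Nr4a1* and *Npas4* hold the exact half-site TGACG. That of *Jun* holds only the near form given above, a description of a few genes with no test. The promoters shown were chosen by these correlations, so no link between motif and correlation can be read from them. *Junb*, which is not shown, also holds the exact half-site, and *Egr1*, *Arc* and *Ier2* were not searched. Against the mean of the other 9 genes, *Egr2* had the highest r (0.88), ahead of *Fosb* (0.79), *Fos* (0.77), *Egr1* (0.68) and *Nr4a1* (0.66), and *Jun* (0.38) and *Ier2* (0.14) had the lowest.

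Among 12750 genes with a probe well above background on all 24 arrays, those most like the mean of the 10 included *Nr4a2* (r = 0.82), *Csrnp1* (0.79), *Clta* (0.78), *Alg14* (0.78), *Plekho2* (0.78), *AU022252* (0.75), *Btg2* (0.74), *Sumo3* (0.73) and *Surf6* (0.73). *Nr4a2* is a close relative of *Nr4a1*, *Btg2* is an antiproliferative early response gene, and *Csrnp1* is a nuclear factor induced by AXIN1. The first and second places, and the seventh, went to genes of a list of 40 other early response genes. Those outside it included *Clta*, a clathrin light chain, and *Sumo3*, a ubiquitin-like modifier.

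The list of other early response genes was measured in full, and 35 of its 40 genes were well above background on all 24 arrays. Their median r was 0.42, against 0.12 for all 12750 genes, and 11 exceeded 0.5, as did 2.85% of all genes. Beside those named above, *Fosl2*, an AP-1 subunit, had an r of 0.71, and *Klf2*, a factor of the endothelium, had 0.65. The lowest were *Plk2* (-0.07), *Gadd45b* (-0.01) and *Rnd3* and *Myc* (0.04 each). The 5 brightest, *Jund*, *Gadd45g*, *Nfkbia*, *Per1* and *Errfi1*, had an r of 0.43, 0.07, 0.37, 0.51 and 0.39. By tissue, 15 of 39 tested genes of the list were higher and 13 lower in brain than in liver (limma, adjusted p, with 33.4% and 45.6% of all probes). Brain against heart gave 8 higher and 20 lower (27.8% and 39.9%), and brain against muscle gave 8 higher and 22 lower (28.7% and 41.4%). Heart exceeded liver for 21 and was below it for 11 (32.3% and 34.4%). Muscle exceeded liver for 20 and was below it for 9 (36.2% and 34.9%), and heart exceeded muscle for 10 and was below it for 6 (21% and 22.4%). For genotype, 0 of 36 genes in liver, 39 in brain, 36 in heart and 36 in muscle were called in limma, and 0, 0, 0 and 1 had an unadjusted p under 0.05, where 2.13%, 2.62%, 7.51% and 2.47% of all probes did.

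The factors, kinases and corepressors that control these genes, such as serum response factor (*Srf*), CREB and the MAP kinases, were followed in a list of 31, of which 30 were well above background throughout. Their median r was 0.14, near the 0.12 of all genes, and 2 exceeded 0.5, *Nab1* (0.59), a corepressor of Egr proteins, and *Crem* (0.52), a CREB relative. Next came *Nab2* (0.47), *Mapk9* (0.46) and *Srf* (0.46), and the lowest were *Crtc2* (-0.29), *Crebbp* (-0.17) and *Elk1* (-0.15). In limma 0 of 30 were called for genotype in liver and 0 of 31 in each of the other tissues, with 0, 1, 1 and 1 at an unadjusted p under 0.05. By tissue, 17 of 31 were higher and 10 lower in brain than in liver, 16 higher and 13 lower in brain than in heart, and 11 higher and 17 lower in brain than in muscle. Heart exceeded liver for 13 and was below it for 11, heart exceeded muscle for 4 and was below it for 18, and muscle exceeded liver for 19 and was below it for 7. The shares of all probes are those given for the early response genes.

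**Figure D4:**
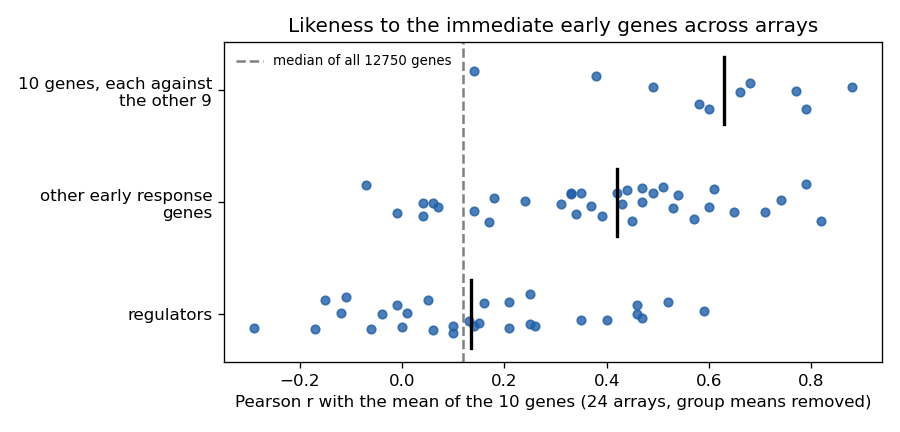
Pearson r of each gene with the mean of the 10 immediate early genes over 24 arrays after the mean of each tissue and genotype was removed (for the 10 themselves, with the mean of the other 9), with list medians as black bars. The other early response genes center on 0.42 and the regulators on 0.14, beside a dashed line at 0.12 for all 12750 genes.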

How the data were processed

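The deposited intensity values are processed signals of Agilent arrays with a single color, which Feature Extraction 12.0.3.1 had corrected for background and spatial trend but not scaled against other arrays. The deposited score values are z-scores of the same signals within each array, and recomputed z-scores lay within 0.005 of them. The study's methods name no statistical test for the arrays. Control spots (3671) and outlier spots were left out, spots of a probe were averaged (55681 probes), and log2 levels were set against the 75th percentile of the array. Genotype tests in a tissue used probes that exceeded background clearly (the scanner flag) on 3 or more of its 6 arrays.

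Tests used limma 3.58.1 (lmFit, eBayes, two-sided) in R 4.3.3 with data.table (version 1.17.8), statmod 1.5.0 and jsonlite 2.0.0, with Benjamini-Hochberg adjustment over all probes tested and a threshold of 0.05. Genotypes were fitted within each tissue, and tissues and the interaction over all 24 arrays on 8 group means. Scripts were tested on simulated data. Motifs and figures were made with Python 3.11.15, pandas 2.3.3 and matplotlib 3.10.9. Genotype differences were described singly for genes that differed by at least 1 (log2) or did not overlap, and tissue differences where they passed the test. From the lists, at most the 5 brightest, the 5 most like and the 3 least like genes were named, and from all genes the 10 most like, of which 1 is not reported here. The 10 genes, the lists and the rules were chosen with earlier results of these data known.

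The same animal numbers stand in the sample titles of all 4 tissues, so the mouse pairs the arrays across tissues. Over 36 pairs of arrays of 1 mouse, the correlation of deviations from the group mean ranged from -0.32 to 0.38 (median 0.09, 24548 probes), and the consensus correlation was 0.026. The number of arrays limits the precision. Alternatives were quantile normalization, normexp (offset 50) on the median foreground, the z-scores, other filters, trend with robust variances, age or slide as a block, the mouse as a block, WT mice alone, and leaving out each mouse.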

Additional observations from a re-analysis of the deposited data

How the results depend on the processing

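None of the tissue differences called and none of the genotype differences described singly changed sign under any alternative, and no genotype or interaction call was gained among these genes. Uncalled tissue differences did so after quantile normalization: *Junb* in brain against liver (0.07 to -0.27), *Ier2* in brain against muscle (0.12 to -0.04) and *Fosb* in heart against liver (0.06 to -0.16). All 63 alternative values of the genotype differences described singly stayed on the same side of the threshold, as did 647 for the tissue differences called, while 39 lost the call. With the mouse as a replicate block, called genes numbered 0 for genotype in every tissue, 9 for brain against liver, 8 for brain against heart, 7 for brain against muscle, 7 for heart against liver, 5 for heart against muscle and 9 for muscle against liver, so the block changed no call. In WT mice only, heart against muscle gave 2 called genes in place of 5, with fewer arrays in the fit, and the difference was 1.92 in place of 1.16 for *Egr2* in brain against muscle and 1.12 in place of 1.72 for *Fos* in heart against liver. With slide as a block (chosen after seeing the data), it gave 3, and muscle against liver gave 5 in place of 9, the cause of which was not tested. The calls for *Ier2* were also lost under normexp (muscle against liver, -0.64) and in the z-scores (brain against liver, -0.21).

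The number of genes whose spread exceeded the 90th percentile depended most on the processing. In brain it was 1, but 5 after quantile normalization, 7 after normexp and 0 to 7 when 1 mouse was left out (0 without KI2, 7 without WT1). In heart it was 1, with 3 after normexp and 0 to 2 without 1 mouse. In muscle it was 4, with 2 to 5 (2 without WT3), and in liver 5, with 4 to 5. Of the 45 pairs, 18 had an r over 0.5, and 11 to 23 did without 1 mouse (11 without KI2). The cause was not tested. Over all probes, genotype calls numbered 0 under each alternative except 1 in brain under 1 of 16, and interaction calls 0 to 4. The mean of all probes of a gene could not be tried, since each gene had 1 probe, and depth does not apply: dim signals limit *Npas4* and *Egr2* in liver. *Junb* was also dim in muscle (-4.73 to -3.79), where its difference from liver was -1.79, and -0.6 after normexp.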
